A study of Arabidopsis thaliana with 27 samples.

Results

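Palisade mesophyll protoplasts of the IQD22pro::GUS-mCit line were compared with GFP-positive protoplasts of the JR11-2 line of Arabidopsis, which the study calls spongy mesophyll-like. The 6 libraries were chosen by their labels, 3 of each population, out of 27 libraries in the series, which also holds libraries made with transcription inhibitors, under high light and from roots. IQD22 palisade cells came from a single representative transgenic line in the Col-0 background, in which the *IQD22* promoter drives a fusion of β-glucuronidase and the yellow fluorescent protein mCitrine, and were sorted for chlorophyll and mCitrine. JR11-2 reference cells came from a GAL4-VP16 enhancer trap line, known also in the C24 background, that was introgressed by repeated crosses into Col-0 and whose GFP is brightest in the lower spongy mesophyll. The labels call these libraries reference cells, and the study's methods state that they were sorted for chlorophyll and GFP.

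In both lines protoplasts were made from the first true leaves of plants aged 17 d, after growth in constant white light of 50 µmol m-2 s-1. The leaves were digested without transcription inhibitors, so that both populations carry whatever response digestion evokes. Each line gave 3 protoplast pools, inferred from the replicate numbers in the labels and named here A to C for IQD22 and D to F for JR11-2. No pool and no line was shared between the populations, so that cell type, line and pool cannot be told apart from these 6 libraries alone. Values of the other sorted population of each pool are therefore given beside the main comparison. They are IQD22 reference cells, which had chlorophyll but no mCitrine, and JR11-2 palisade cells, which are labelled as palisade and had chlorophyll but no GFP.

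The palisade is the layer of tall, tightly packed cells under the upper (adaxial) epidermis, and the spongy mesophyll is the looser tissue between it and the lower (abaxial) epidermis. The abaxial side of a leaf is specified by YABBY and KANADI transcription factors and by the auxin response factors *ARF3* and *ARF4*, and the adaxial side by class III homeodomain-leucine zipper proteins and by small RNAs cut from the *TAS3* transcript, which target *ARF3* and *ARF4*. Chemical defences of the leaf include glucosinolates, sulfur-rich compounds made from methionine (aliphatic) or tryptophan (indolic) and cleaved by myrosinases. Sinapoylmalate, a phenylpropanoid ester that absorbs UV light, is another protective compound of the leaf.

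Counts on genes ranged from 21446134 to 26681749 in IQD22 palisade libraries and from 15431767 to 27247510 in JR11-2 reference libraries, with JR11-2 reference 3 the shallowest. Levels are given as CPM, counts relative to library size with edgeR's TMM scaling, and 3 counts, the floor used here, corresponded to 0.116 to 0.140 CPM in IQD22 palisade libraries and 0.111 to 0.179 CPM in JR11-2 reference libraries. Over the 19845 genes tested in the main comparison, Pearson's r of log2 CPM, with an offset added, averaged 0.973 between IQD22 palisade and JR11-2 reference libraries (0.965 to 0.980 over 9 pairs). The libraries within IQD22 palisade averaged 0.989, as did those within JR11-2 reference. For the same genes, the axis of largest variation over the 12 libraries held 40.5% of the variance. On it, IQD22 palisade libraries lay between -46.8 and -38.7 and JR11-2 palisade libraries between -13.4 and 3.45. Reference libraries of both lines lay between 14.4 and 28.4. These are descriptions across genes, which are not independent replicates.

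Of 19845 nuclear genes tested, 438 (2.21%) were higher and 798 (4.02%) lower in IQD22 palisade than in JR11-2 reference cells, at an FDR below 0.05 in edgeR's quasi-likelihood test and a fold-difference above 2. Lower genes made up 64.6% of these 1236 genes, which had a median absolute log2 fold change of 1.75. Over all 19845 genes the log2 fold change had a median of -0.02. Without JR11-2 reference 2 the counts were 215 higher and 513 lower, and without IQD22 palisade 2 they were 275 higher and 577 lower. Without JR11-2 reference 1 they were 625 higher and 677 lower, so that lower genes made up 52.0% of calls. In all cases below, fewer cells of a type in a sorted population and less RNA per cell cannot be told apart. Log2 fold changes are IQD22 palisade over JR11-2 reference unless another pair is named, and are given with an approximate standard error (SE).

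The same IQD22 palisade libraries were also compared with IQD22 reference cells of their own pools. There, 407 of 19912 genes (2.04%) were higher and 1335 (6.7%) lower in IQD22 palisade cells. IQD22 reference cells against JR11-2 reference cells, the comparison that crosses the lines without the palisade, gave 43 higher (0.215%) and 18 lower (0.0898%) of 20046 genes. DESeq2 called 132 higher and 60 lower there, and 2158 genes had an unadjusted p below 0.05 in edgeR's test. Its edgeR counts were 65 higher and 25 lower without JR11-2 reference 1, 7 and 4 without JR11-2 reference 2, 25 and 10 without JR11-2 reference 3, 12 and 11 without IQD22 reference 1, 9 and 6 without IQD22 reference 2, and 24 and 10 without IQD22 reference 3. The first comparison shares IQD22 palisade libraries, and the second JR11-2 reference libraries, with the main comparison, so that their values are placed side by side for each gene and not counted as separate evidence.

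**Figure D1:**
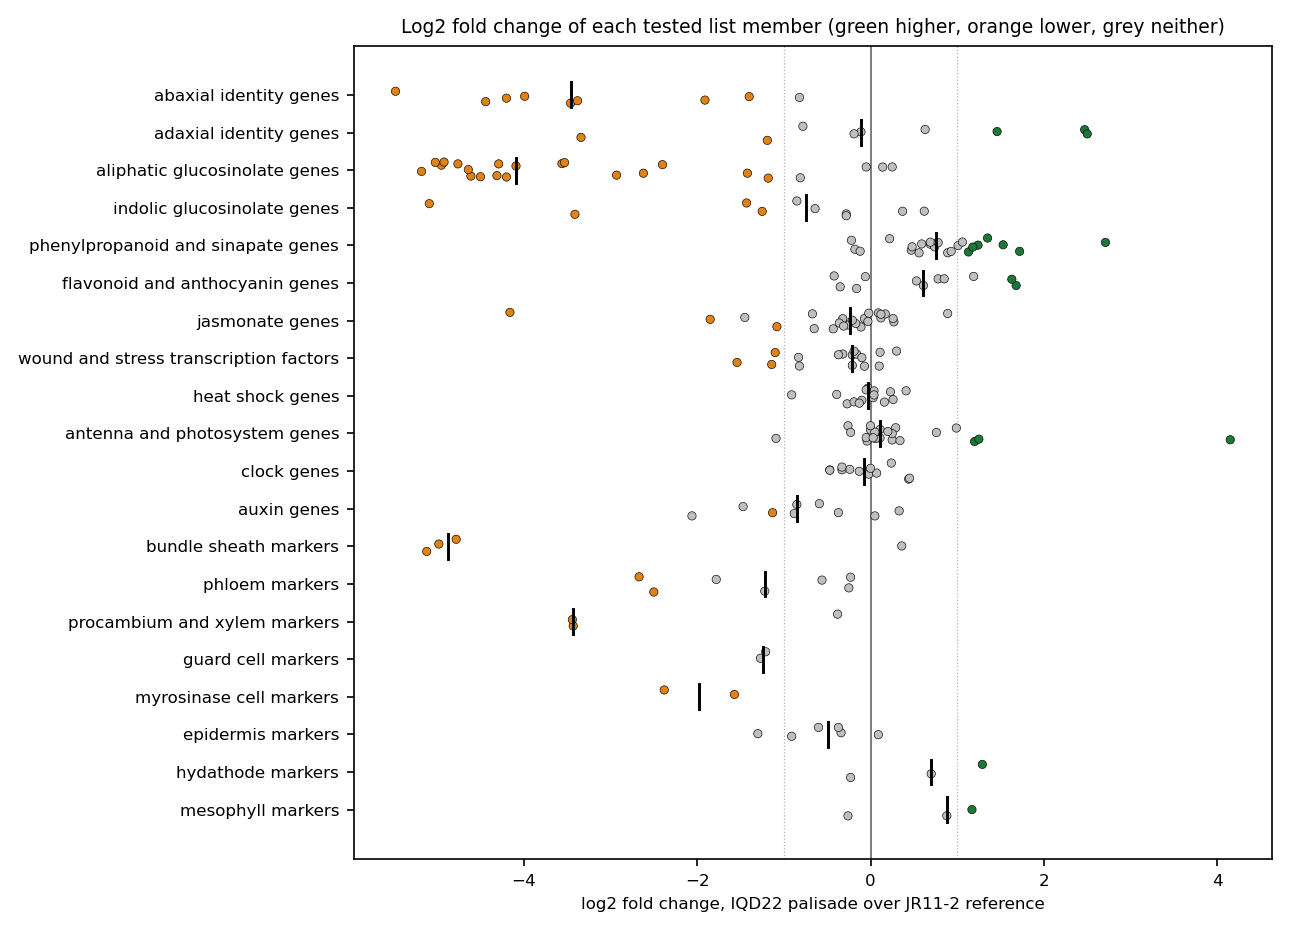
Each point is a tested member of a gene list, placed by its log2 fold change of IQD22 palisade over JR11-2 reference (horizontal axis), with a black bar at the median of the list and dotted lines at a fold-difference of 2. Points are green where higher, orange where lower and grey where neither at an FDR below 0.05, and the abaxial, aliphatic glucosinolate and bundle sheath lists have medians of -3.46, -4.09 and -4.88, against -0.02 for all genes tested.

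*IQD22*, the IQ-domain gene whose promoter drives the reporter used for sorting, had 119, 76.2 and 100 CPM in the 3 IQD22 palisade libraries, against 62.8, 71.4 and 71.0 CPM in the JR11-2 reference libraries. The groups did not overlap, but the log2 fold change of 0.54 (SE 0.18, FDR 0.078) did not pass the test. Against IQD22 reference cells, which had 58.5, 39.9 and 43.3 CPM, the log2 fold change was 1.07 and passed. JR11-2 palisade libraries had 78.6, 80.3 and 96.5 CPM.

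Genes of abaxial identity were lower in IQD22 palisade cells in 8 of the 9 that could be tested, against 4.02% of all genes, and none was higher. The list has 10 members and *KAN4* was under the filter on low counts. Its median log2 fold change was -3.46, and the summed level of the list was 12.8 to 16.8 CPM in IQD22 palisade libraries, against 70.6 to 84.9 CPM in JR11-2 reference libraries. *YAB1* (FILAMENTOUS FLOWER), a founding YABBY factor, had 0.303, 1.54 and 0.927 CPM in IQD22 palisade libraries, against 18.4, 15.8 and 9.90 CPM in JR11-2 reference libraries, a log2 fold change of -3.99 (SE 0.42, FDR 0.00041). *YAB3*, a close relative that acts redundantly with it, had 2.08, 2.09 and 1.70 CPM in IQD22 palisade libraries, against 22.9, 23.1 and 19.4 CPM in JR11-2 reference libraries (log2 fold change -3.46, SE 0.17, FDR 5.84e-06). For both genes every IQD22 palisade library lay below every JR11-2 reference library.

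*YAB5*, another YABBY gene, had 0.173, 0.419 and 0.232 CPM in IQD22 palisade libraries, against 5.50, 4.6 and 5.31 CPM in JR11-2 reference libraries (log2 fold change -4.20, SE 0.32, FDR 4.91e-05). It was also the only member of the list that differed between the reference populations, with a log2 fold change of 1.07 of IQD22 reference over JR11-2 reference. *YAB2* was near the limit of detection in IQD22 palisade cells, with 4 counts in all, against 193 counts in JR11-2 reference cells. Its levels were 0, 0.186 and 0 CPM in IQD22 palisade libraries, against 2.88, 2.00 and 3.64 CPM in JR11-2 reference libraries.

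The KANADI genes, which encode GARP-type repressors, were lower too. *KAN1* had 0.824, 0.977 and 0.347 CPM in IQD22 palisade libraries, against 8.49, 7.53 and 6.26 CPM in JR11-2 reference libraries (log2 fold change -3.38, SE 0.32, FDR 0.000198). *KAN2* had 0.130, 0.0931 and 0.0772 CPM in IQD22 palisade libraries, around the floor, against 2.92, 2.45 and 1.43 CPM in JR11-2 reference libraries (log2 fold change -4.44, SE 0.46). *KAN3* differed less, with 1.69, 2.00 and 0.811 CPM in IQD22 palisade libraries, against 5.28, 5.53 and 6.26 CPM in JR11-2 reference libraries (log2 fold change -1.91, SE 0.30, FDR 0.00367). In JR11-2 palisade libraries *KAN3* had 0.909, 1.16 and 0.827 CPM, as low as in IQD22 palisade cells, whereas all 4 YABBY genes were above their IQD22 palisade levels in those libraries. *YAB3* and *KAN3* are among the genes that the study picked from its own libraries as higher in non-palisade cells and tested as reporters. Their direction is therefore not independent evidence. The study saw its *YAB3* reporter in abaxial cells, but its *KAN3* reporter in veins and, in some plants, in adaxial epidermis over the midvein.

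Of the auxin response factors, *ARF4* was lower in IQD22 palisade cells, with 1.99, 2.79 and 1.66 CPM in IQD22 palisade libraries and 5.46, 4.94 and 6.86 CPM in JR11-2 reference libraries (log2 fold change -1.4, SE 0.25, FDR 0.00661). *ARF3* had 6.24, 6.70 and 7.07 CPM in IQD22 palisade libraries, against 13, 11.3 and 11.5 CPM in JR11-2 reference libraries. Its log2 fold change of -0.82 (SE 0.15, FDR 0.00769) stayed under the limit on the fold-difference, while against IQD22 reference cells it was -1.44 and passed.

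**Figure D2:**
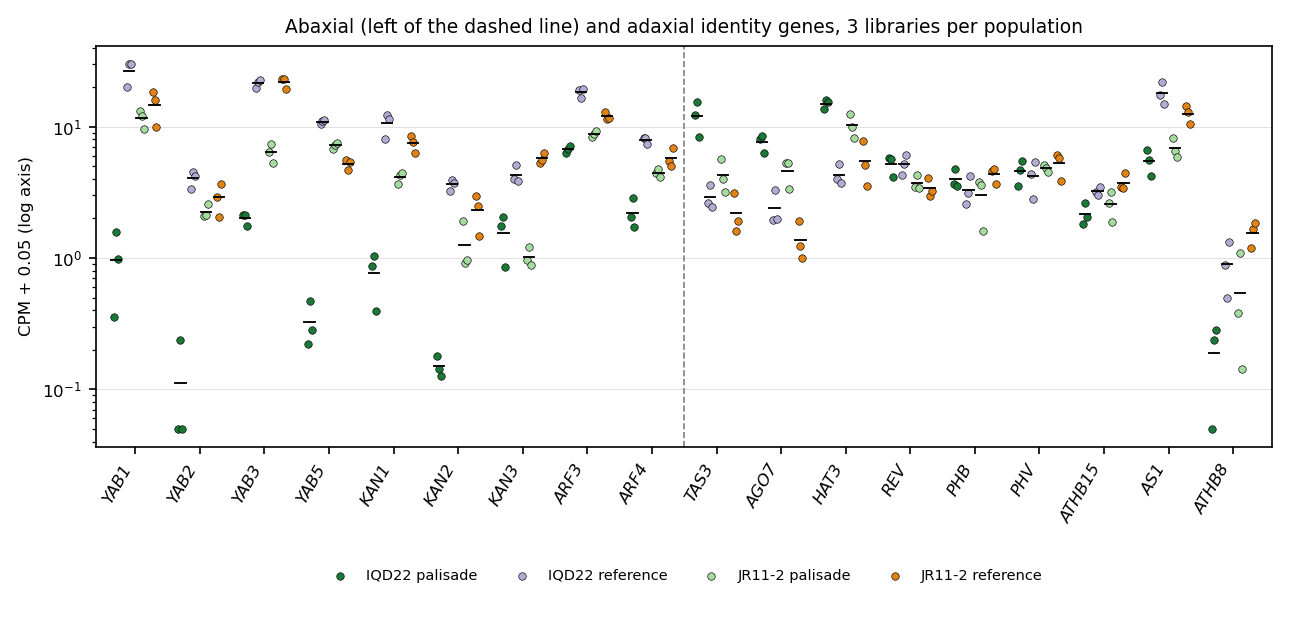
Levels (CPM + 0.05, log axis) of abaxial (left of the dashed line) and adaxial identity genes in the 3 libraries of each of 4 populations, with a bar at the mean. *YAB1*, *YAB3*, *YAB5*, *KAN1* and *KAN2* lie below 3 CPM in every IQD22 palisade library, while *TAS3*, *AGO7* and *HAT3* lie above every JR11-2 reference library.

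Genes of adaxial identity were called in both directions. Of 11 members, 9 were tested, 3 were higher, against 2.21% of all genes, and 2 lower, against 4.02%, and the median log2 fold change was -0.11. The higher members belong to the small RNA pathway and to class II homeodomain-leucine zipper factors. *TAS3*, the noncoding transcript that gives rise to the small RNAs against *ARF3* and *ARF4*, had 12.2, 15.3 and 8.26 CPM in IQD22 palisade libraries, against 3.06, 1.56 and 1.85 CPM in JR11-2 reference libraries (log2 fold change 2.47, SE 0.31, FDR 0.000972). *AGO7*, the Argonaute protein that starts the processing of *TAS3*, had 8.06, 8.47 and 6.29 CPM in IQD22 palisade libraries, against 1.85, 1.19 and 0.954 CPM in JR11-2 reference libraries (log2 fold change 2.50, SE 0.26, FDR 0.000403). Every IQD22 palisade library was above every JR11-2 reference library for both transcripts.

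*HAT3*, a class II homeodomain-leucine zipper gene that promotes adaxial fate, had 13.7, 15.8 and 15.3 CPM in IQD22 palisade libraries, against 7.75, 5.08 and 3.46 CPM in JR11-2 reference libraries (log2 fold change 1.46, SE 0.25, FDR 0.00561). The JR11-2 palisade libraries were between these, with 12.5, 9.97 and 8.09 CPM. *TAS3* and *HAT3* were also chosen by the study from its own libraries as higher in palisade cells and tested as reporters. Their direction is therefore not independent evidence.

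The class III genes themselves gave no higher call. *REV* had 5.77, 5.63 and 4.09 CPM in IQD22 palisade libraries, against 4.02, 2.93 and 3.16 CPM in JR11-2 reference libraries (log2 fold change 0.63, SE 0.22, FDR 0.105). For *PHB* and *PHV* the groups overlapped, with log2 fold changes of -0.11 (SE 0.21) and -0.19 (SE 0.24). *ATHB15* had -0.78 as its log2 fold change (SE 0.24, FDR 0.0613). *ATHB8*, the class III member tied to procambium, was lower, with 0, 0.186 and 0.232 CPM in IQD22 palisade libraries, against 1.14, 1.60 and 1.79 CPM in JR11-2 reference libraries (log2 fold change -3.34, SE 0.59, FDR 0.00651). *AS1*, a MYB repressor that works with *AS2* in adaxial development, was lower as well, with 6.63, 5.54 and 4.13 CPM in IQD22 palisade libraries and 14.2, 12.9 and 10.4 CPM in JR11-2 reference libraries (log2 fold change -1.19, SE 0.21, FDR 0.00578). *AS2* and *ATHB4* were under the filter.

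Aliphatic glucosinolate genes were lower in IQD22 palisade cells by more than an order of magnitude in most cases. All 23 members were tested, 19 were lower in IQD22 palisade cells, against 4.02% of all genes, none was higher, and the median log2 fold change was -4.09. The summed level of the list overlapped, with 1550 to 2540 CPM in IQD22 palisade libraries and 2250 to 2760 CPM in JR11-2 reference libraries. *MYB28*, the main transcriptional activator of the pathway, had 0.520, 1.21 and 0.734 CPM in IQD22 palisade libraries, against 22.1, 18.0 and 20.8 CPM in JR11-2 reference libraries (log2 fold change -4.61, SE 0.26, FDR 1.02e-05). Its paralogue *MYB29* was low throughout, with 0.130, 0.140 and 0.154 CPM in IQD22 palisade libraries, against 1.37, 0.334 and 1.79 CPM in JR11-2 reference libraries (log2 fold change -2.93, SE 0.67, FDR 0.0195). *MYB29* lost its call without IQD22 palisade 1, 2 or 3 or JR11-2 reference 3, and in JR11-2 reference 2 it was the least abundant of the group.

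The enzymes that lengthen the side chain of methionine came next. *BCAT4*, the aminotransferase that opens the cycle, had 0.694, 1.86 and 1.81 CPM in IQD22 palisade libraries, against 61.3, 29.2 and 46.7 CPM in JR11-2 reference libraries (log2 fold change -4.95, SE 0.38, FDR 5.03e-05). *MAM1*, which condenses the keto acid with acetyl-CoA, had 1.65, 6.52 and 2.82 CPM in IQD22 palisade libraries, against 154, 79.2 and 126 CPM in JR11-2 reference libraries (log2 fold change -5.02, SE 0.47, FDR 0.000173). In both genes JR11-2 reference 2 was the lowest of its group and still over 10 times the highest IQD22 palisade library. *IMD1*, *IPMI-SSU2*, *IPMI-SSU3*, *MAM3* and the plastid transporter gene *BAT5* were lower with log2 fold changes from -4.31 for *BAT5* to -2.62 for *MAM3*.

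Of the enzymes that build the core structure, 3 with large differences are given first. *CYP83A1*, which oxidises the aldoxime intermediates, had 1.26, 5.54 and 1.81 CPM in IQD22 palisade libraries, against 123, 76.9 and 114 CPM in JR11-2 reference libraries (log2 fold change -5.18, SE 0.48, FDR 0.000176). *CYP79F1*, which makes those aldoximes, had 0.434, 1.12 and 0.888 CPM in IQD22 palisade libraries, against 33.5, 13.2 and 20.2 CPM in JR11-2 reference libraries (log2 fold change -4.76, SE 0.41, FDR 0.000102). *GSTU20*, a glutathione transferase of the pathway, had 1.13, 4.51 and 2.12 CPM in IQD22 palisade libraries, against 95.2, 50.1 and 49.6 CPM in JR11-2 reference libraries (log2 fold change -4.64, SE 0.46, FDR 0.000256). The highest IQD22 palisade library of each was IQD22 palisade 2, and none reached a JR11-2 reference library. *BCAT4*, *MAM1*, *CYP79F1*, *CYP83A1* and *GSTU20* were picked by the study from its own libraries as higher in non-palisade cells and tested as reporters. Their direction is therefore not independent evidence. The study saw their reporters in the bundle sheath, and possibly in further vein cells.

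*CYP79F1* has a near-identical neighbour, *CYP79F2*, and reads that map to both are not counted, so that each is uncertain. *CYP79F2* had 1 count in IQD22 palisade libraries and 32 in JR11-2 reference libraries, a JR11-2 to IQD22 ratio of 31.8 with a counting interval of 5.32 to 1300 (exact binomial, 95%, counting error only). The S-oxygenase genes *FMO-GSOX1* and *FMO-GSOX3*, which modify the side chain, had log2 fold changes of -4.09 (SE 0.43) and -4.92 (SE 0.40). *AOP2*, which is not in the list but was among the 10 genes with the largest decrease, also modifies side chains where it is functional. It is listed as a transcribed pseudogene in the TAIR10.1 annotation and had 0.0434, 0.372 and 0.154 CPM in IQD22 palisade libraries, against 14.3, 6.35 and 13.4 CPM in JR11-2 reference libraries (log2 fold change -5.87, SE 0.51, FDR 0.000104).

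Other members of the list differed less or were not called. *SUR1*, the C-S lyase shared by aliphatic and indolic synthesis, had 22.0, 18.7 and 22.0 CPM in IQD22 palisade libraries, against 65.1, 50.2 and 54.3 CPM in JR11-2 reference libraries (log2 fold change -1.42, SE 0.15, FDR 0.000437). The sulfotransferase genes *SOT17* and *SOT18*, which act at the last step of the core, had log2 fold changes of -2.40 (SE 0.33) and -1.18 (SE 0.22), and *SOT18* lost its call without JR11-2 reference 1. *BCAT3*, an aminotransferase shared with leucine synthesis, had -0.81 as its log2 fold change (SE 0.14, FDR 0.00589), under the limit on the fold-difference. *IPMI-LSU1*, also of leucine synthesis, had 167, 176 and 164 CPM in IQD22 palisade libraries and 162, 130 and 140 CPM in JR11-2 reference libraries (log2 fold change 0.25, SE 0.15, FDR 0.37), and *GGP1* and *AT2G31790* overlapped between the groups.

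**Figure D3:**
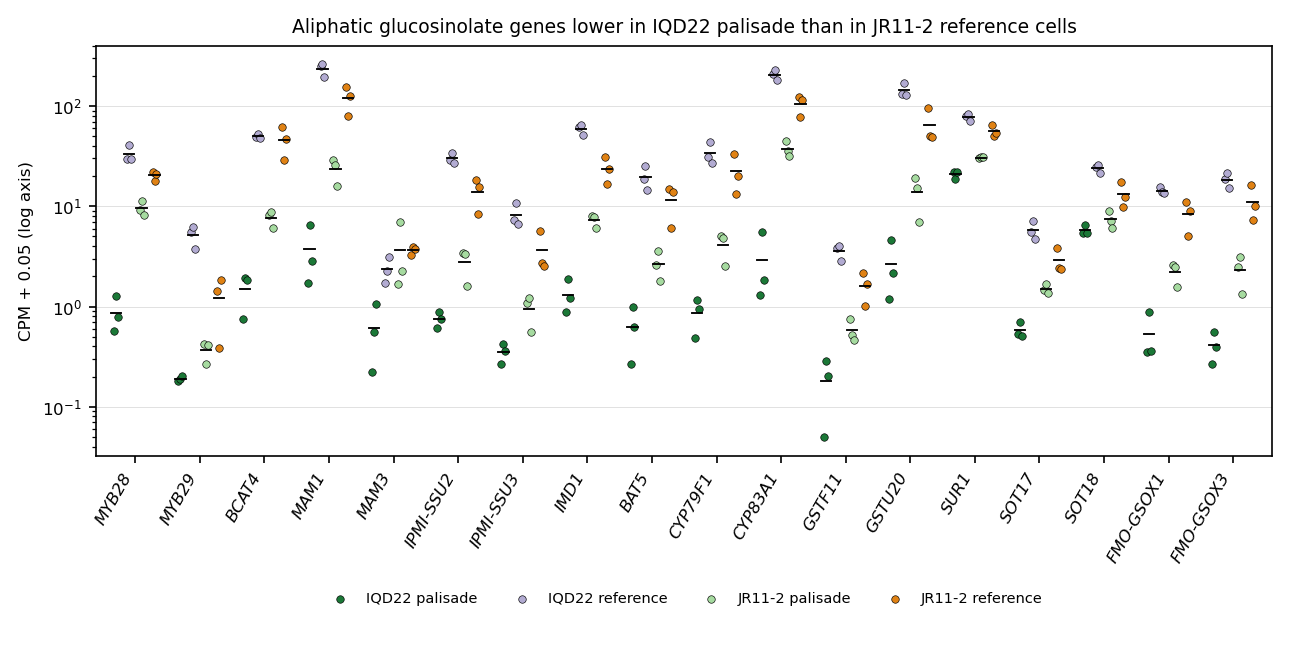
Levels (CPM + 0.05, log axis) of 18 aliphatic glucosinolate genes lower in IQD22 palisade than in JR11-2 reference cells, in the 3 libraries of each of 4 populations, with a bar at the mean. For *CYP83A1* the IQD22 palisade libraries lie between 1.26 and 5.54 CPM, the JR11-2 palisade libraries between 31.9 and 45.0 CPM and the JR11-2 reference libraries between 76.9 and 123 CPM.

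Against IQD22 reference cells 20 of the 23 members were lower, against 6.7% of all genes, with a median log2 fold change of -4.89. IQD22 reference over JR11-2 reference gave a median of 0.74, with 1 member higher, *IMD1*, against 0.215% of all genes, and none lower. JR11-2 palisade cells kept intermediate levels, with 28.6, 25.5 and 16 CPM of *MAM1* and 9.13, 11.3 and 8.18 CPM of *MYB28*. For *MYB28* the order of mean levels over the populations was IQD22 palisade, JR11-2 palisade, JR11-2 reference and IQD22 reference, from lowest to highest, and no neighbouring populations overlapped.

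Indolic glucosinolate genes differed in part. Of 10 tested members of 12, 4 were lower, against 4.02% of all genes, none was higher, and the median log2 fold change was -0.74. *MYB34*, an activator of tryptophan-derived synthesis, had 0.260, 0.372 and 0.0386 CPM in IQD22 palisade libraries, against 8.57, 6.68 and 7.52 CPM in JR11-2 reference libraries (log2 fold change -5.09, SE 0.41, FDR 6.46e-05). *CYP79B3*, which converts tryptophan to its aldoxime, had 1.3, 2.09 and 1.47 CPM in IQD22 palisade libraries, against 22.8, 14.6 and 14.8 CPM in JR11-2 reference libraries (log2 fold change -3.41, SE 0.26, FDR 4.91e-05). *CYP79B2*, with the same activity, and *MYB51*, another activator, were lower with log2 fold changes of -1.43 (SE 0.28, FDR 0.00918) and -1.25 (SE 0.19, FDR 0.00339).

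*CYP83B1*, which oxidises the indolic aldoxime, was not called and had 49.7, 29.3 and 34.6 CPM in IQD22 palisade libraries, against 61.0, 56.0 and 61.6 CPM in JR11-2 reference libraries (log2 fold change -0.64, SE 0.19, FDR 0.0586). *SOT16*, the sulfotransferase gene of the indolic branch, had 41.3, 32.9 and 20.1 CPM in IQD22 palisade libraries and 21, 18 and 23 CPM in JR11-2 reference libraries, and the groups overlapped (log2 fold change 0.62, SE 0.24, FDR 0.134). The myrosinase genes *TGG1* and *TGG2*, whose products cleave glucosinolates and which mark idioblast cells, summed to 5.25 to 14.4 CPM in IQD22 palisade libraries, against 26.6 to 73.7 CPM in JR11-2 reference libraries. *TGG1* had 4.21, 5.96 and 10.9 CPM in IQD22 palisade libraries, against 24.9, 63.6 and 22.8 CPM in JR11-2 reference libraries (log2 fold change -2.38, SE 0.44, FDR 0.00803). *TGG2* was at the edge of the limit (log2 fold change -1.57, SE 0.44, FDR 0.0474) and lost its call without IQD22 palisade 1 or 2 or JR11-2 reference 1 or 2.

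Some markers of cells around and inside the veins were lower in IQD22 palisade cells. Bundle sheath markers summed to 15.3 to 23.5 CPM in IQD22 palisade libraries, against 69.1 to 102 CPM in JR11-2 reference libraries, and 3 of 4 were lower, against 4.02% of all genes. *AT1G12010* was among the lower ones and was picked by the study from its own libraries as higher in non-palisade cells. Its direction is therefore not independent evidence. *SULTR2;2*, a sulfate transporter gene, had 0.520, 1.58 and 0.811 CPM in IQD22 palisade libraries, against 41.7, 26.3 and 24.6 CPM in JR11-2 reference libraries (log2 fold change -4.98, SE 0.36, FDR 3.62e-05). *AT2G43150*, an extensin-like gene, had 0.650, 0.745 and 0.772 CPM in IQD22 palisade libraries, against 26.0, 16.6 and 18.1 CPM in JR11-2 reference libraries (log2 fold change -4.78, SE 0.25, FDR 5.84e-06). The fourth marker, *SCR*, a GRAS transcription factor gene of bundle sheath identity, did not follow them, with 14.0, 20.4 and 14.6 CPM in IQD22 palisade libraries and 15.4, 12.9 and 10.3 CPM in JR11-2 reference libraries.

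Of 7 phloem markers, 2 were lower, against 4.02% of all genes, and the list summed to 10.9 to 14.4 CPM in IQD22 palisade libraries, against 19.9 to 36.8 CPM in JR11-2 reference libraries. The lower ones were the sucrose exporters *SWEET11* and *SWEET12*, which work in phloem parenchyma, with log2 fold changes of -2.67 (SE 0.38, FDR 0.00214) and -2.50 (SE 0.48, FDR 0.00865), and *SWEET12* lost its call without JR11-2 reference 2. *SUC2*, which loads sucrose into companion cells, had 4.68, 3.03 and 5.44 CPM in IQD22 palisade libraries and 3.73, 7.24 and 4.83 CPM in JR11-2 reference libraries, with overlap. Of 3 procambium and xylem markers, the receptor kinase gene *PXY* and the transcription factor gene *TMO5* were lower, against 4.02% of all genes. The log2 fold changes were -3.43 (SE 0.64) for *PXY* and -3.44 (SE 0.37) for *TMO5*, and *PXY* had only 0.358 to 1.00 CPM in JR11-2 reference libraries. The third marker, *LOX6*, was not called (log2 fold change -0.38).

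Markers of guard and epidermal cells were at low levels in both populations. Guard cell markers summed to 0.186 to 0.965 CPM in IQD22 palisade libraries and 0.591 to 1.22 CPM in JR11-2 reference libraries, with 2 of 6 tested, none called, and *FAMA* and *HT1* at 0 in every IQD22 palisade library. Epidermis markers summed to 2.69 to 4.02 CPM in IQD22 palisade libraries and 4.06 to 6.35 CPM in JR11-2 reference libraries, with 6 of 7 tested and none called. *PDF1*, the protodermal factor gene, was at 0 in every IQD22 palisade library and in all but 1 JR11-2 reference library. Hydathode markers summed to 83.5 to 141 CPM in IQD22 palisade libraries, against 52.1 to 77.5 CPM in JR11-2 reference libraries, with *AT1G62510* higher (log2 fold change 1.29, SE 0.24, FDR 0.00817) and its call lost without JR11-2 reference 2. The contribution of cells with these vascular, bundle sheath, myrosinase and hydathode markers to the gene differences was not tested.

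Phenylpropanoid and sinapate genes ran the other way. All 24 were tested, 7 (*PAL1*, *UGT84A2*, *CCR2*, *CAD4*, *OMT1*, *SNG1* and *HCT*) were higher in IQD22 palisade cells, against 2.21% of all genes, none was lower, and the median log2 fold change was 0.76. Without JR11-2 reference 2 the calls of *CCR2*, *HCT* and *UGT84A2* were lost and 4 stayed. *PAL1*, which encodes the phenylalanine ammonia-lyase at the entry of the pathway, had 166, 87.4 and 59.1 CPM in IQD22 palisade libraries, against 18.8, 12.8 and 16.8 CPM in JR11-2 reference libraries (log2 fold change 2.71, SE 0.34, FDR 0.00112). *PAL2*, an isoform, had 201, 188 and 147 CPM in IQD22 palisade libraries and 148, 133 and 111 CPM in JR11-2 reference libraries (log2 fold change 0.47, SE 0.18, FDR 0.128).

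The genes of the sinapate branch gave smaller differences. *UGT84A2*, which encodes the glucosyltransferase that makes sinapoylglucose, had 213, 74.1 and 75.2 CPM in IQD22 palisade libraries, against 35.7, 28.2 and 47.4 CPM in JR11-2 reference libraries (log2 fold change 1.72, SE 0.39, FDR 0.0196). *SNG1*, whose product moves the sinapoyl group onto malate, had 305, 422 and 327 CPM in IQD22 palisade libraries, against 188, 137 and 147 CPM in JR11-2 reference libraries (log2 fold change 1.18, SE 0.19, FDR 0.00452). *OMT1*, a methyltransferase gene of sinapate and lignin synthesis, had 203, 184 and 179 CPM in IQD22 palisade libraries, against 95.2, 84.2 and 63.5 CPM in JR11-2 reference libraries (log2 fold change 1.24, SE 0.18, FDR 0.00214). No IQD22 palisade library of these genes fell within the JR11-2 reference range.

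*FAH1*, the ferulate hydroxylase gene that sinapate synthesis depends on, had 51.3, 32.4 and 41.2 CPM in IQD22 palisade libraries, against 22.0, 24.6 and 27.1 CPM in JR11-2 reference libraries. The groups did not overlap, and its log2 fold change of 0.78 (SE 0.18, FDR 0.0214) stayed under the limit on the fold-difference. *C4H* and *4CL1*, which follow phenylalanine ammonia-lyase, varied widely among IQD22 palisade libraries. *C4H* had 591, 231 and 159 CPM in IQD22 palisade libraries and 176, 163 and 195 CPM in JR11-2 reference libraries, with overlap (log2 fold change 0.89, SE 0.40, FDR 0.203). IQD22 reference libraries had 608, 286 and 187 CPM of *C4H*, with pool A highest in both populations of the line.

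Among lignin genes, *CCR2*, a cinnamoyl-CoA reductase gene, had 102, 54.2 and 48.6 CPM in IQD22 palisade libraries, against 17.9, 22.3 and 31.7 CPM in JR11-2 reference libraries (log2 fold change 1.53, SE 0.30, FDR 0.0098). *CAD4*, a cinnamyl alcohol dehydrogenase gene, had 89.6, 108 and 77.3 CPM in IQD22 palisade libraries, against 48.6, 34.6 and 25.8 CPM in JR11-2 reference libraries (log2 fold change 1.35, SE 0.23, FDR 0.00544). *HCT*, which encodes a hydroxycinnamoyltransferase, had 1.13 as its log2 fold change (SE 0.20, FDR 0.00694) and also lost its call without IQD22 palisade 1. *PAL1*, *HCT* and *UGT84A2* were picked by the study from its own libraries as higher in palisade cells and tested as reporters. Their direction is therefore not independent evidence. Against IQD22 reference cells 6 of the 24 were higher, against 2.04% of all genes, with log2 fold changes of 1.58 for *PAL1*, 2.56 for *UGT84A2* and 1.22 for *SNG1*.

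Flavonoid and anthocyanin genes were mostly scarce, and 11 of 16 could be tested. *F3H*, the flavanone hydroxylase gene, had 8.06, 11.0 and 7.99 CPM in IQD22 palisade libraries, against 3.84, 2.89 and 1.61 CPM in JR11-2 reference libraries (log2 fold change 1.68, SE 0.29, FDR 0.00523). *FLS1*, the flavonol synthase gene, had 0.954, 0.605 and 1.04 CPM in IQD22 palisade libraries and 0.295, 0.297 and 0.239 CPM in JR11-2 reference libraries (log2 fold change 1.63, SE 0.40, FDR 0.0271). Its call was lost without any of the libraries but IQD22 palisade 2. *CHS*, the chalcone synthase gene at the entry of the pathway, had at most 0.772 CPM in IQD22 palisade libraries and 0.738 CPM in JR11-2 reference libraries.

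**Figure D4:**
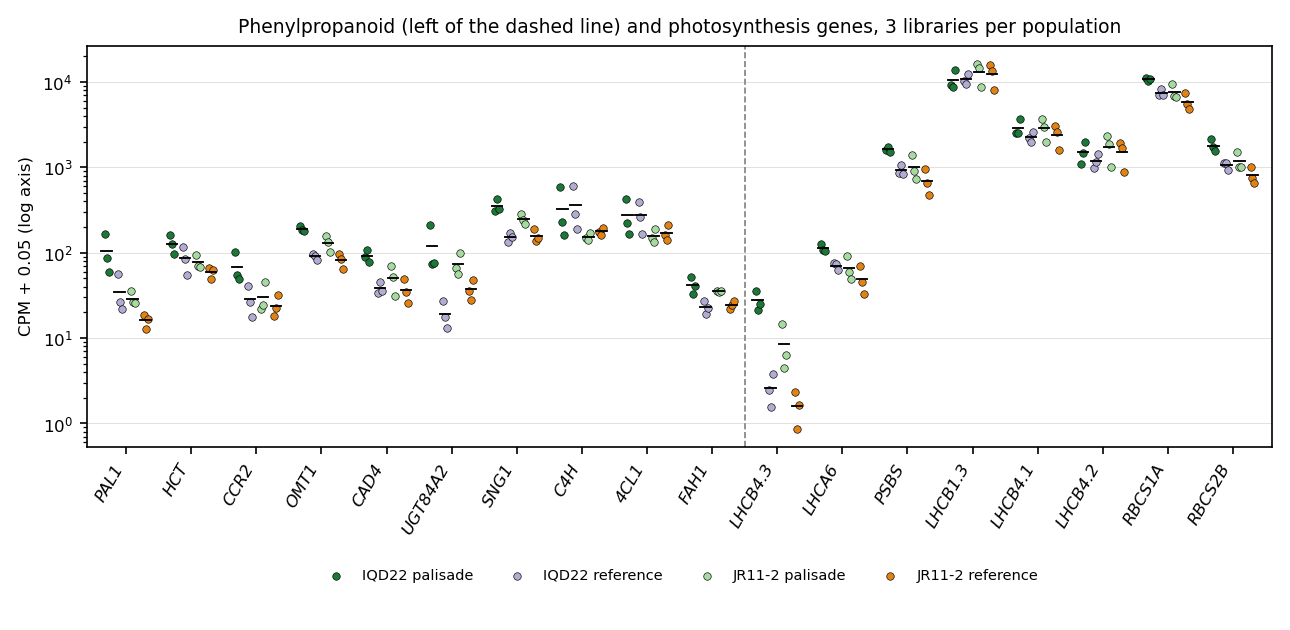
Levels (CPM + 0.05, log axis) of phenylpropanoid (left of the dashed line) and photosynthesis genes in the 3 libraries of each of 4 populations, with a bar at the mean. *PAL1* lies at 59.1 CPM and above in IQD22 palisade and at 18.8 CPM and below in JR11-2 reference libraries, and *LHCB4.3* is the antenna gene with the widest gap between these populations.

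Genes of the light-harvesting antennae were abundant in both populations, and 3 of 22 were higher in IQD22 palisade cells, against 2.21% of all genes, with a list median of 0.11. *LHCB4.3*, a minor antenna protein of photosystem II that is a variant of the CP29 family, had 36.0, 21.5 and 25.1 CPM in IQD22 palisade libraries, against 2.29, 0.816 and 1.61 CPM in JR11-2 reference libraries. Its log2 fold change was 4.15 (SE 0.33, FDR 6.44e-05), a fold-difference of 17.7. It is among the genes that the study picked from its own libraries as higher in palisade cells and tested as reporters. IQD22 reference libraries had 2.43, 1.52 and 3.76 CPM and JR11-2 palisade libraries 14.4, 4.46 and 6.25 CPM, so that both palisade populations lay above both reference populations. Its relatives *LHCB4.1* and *LHCB4.2*, which were far more abundant, had log2 fold changes of 0.29 (SE 0.27) and 0.03 (SE 0.31), with overlap between the groups.

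*PSBS*, a protein needed to dissipate excess light energy as heat, had 1610, 1750 and 1510 CPM in IQD22 palisade libraries, against 962, 648 and 471 CPM in JR11-2 reference libraries (log2 fold change 1.25, SE 0.26, FDR 0.0125). *LHCA6*, an antenna protein that links photosystem I to the NDH complex, had 125, 107 and 104 CPM in IQD22 palisade libraries, against 69.7, 45.7 and 32.9 CPM in JR11-2 reference libraries (log2 fold change 1.2, SE 0.24, FDR 0.0116). Both lost their calls without JR11-2 reference 2, *PSBS* also without IQD22 palisade 2 and *LHCA6* without JR11-2 reference 3, and only *LHCB4.3* of the list was called without JR11-2 reference 2. The major antenna genes *LHCB1.1* to *LHCB1.5* and *LHCB2.1* to *LHCB2.3* share long identical stretches, so that their counts are uncertain, and all of them overlapped between the groups.

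*RBCS2B*, a Rubisco small subunit gene, had 2140, 1710 and 1540 CPM in IQD22 palisade libraries, against 1020, 748 and 661 CPM in JR11-2 reference libraries (log2 fold change 1.17, SE 0.23, FDR 0.00918), with its call lost without JR11-2 reference 2. *RBCS1A* had 0.88 as its log2 fold change (SE 0.24, FDR 0.0431), under the limit on the fold-difference. The small subunit genes are near-identical as well and are uncertain as single genes. For all 3 mesophyll markers together the summed level was 14500 to 15900 CPM in IQD22 palisade libraries, against 6960 to 12600 CPM in JR11-2 reference libraries.

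The study picked 17 genes from its own sorted libraries as higher in palisade cells and tested their promoters as reporters. Some of these reporters, and not all, were higher in the palisade than in other photosynthetic cells. For *UGT84A2*, *HAT3*, *ANL2* and *GPX7*, among others, the study saw no localized palisade expression. Of the 17 genes, 12 were higher in IQD22 palisade than in JR11-2 reference cells, against 2.21% of all genes. Without JR11-2 reference 2, 9 were higher. The median log2 fold change of the 17 genes in the main comparison was 1.46. Their direction is not independent evidence, since the choice came from the study's own comparison of sorted palisade cells. Beside *LHCB4.3*, the member with the widest gap was *XTH6*, a xyloglucan-modifying enzyme of the cell wall, with 20.4, 32.1 and 33.0 CPM in IQD22 palisade libraries, against 5.13, 4.56 and 1.55 CPM in JR11-2 reference libraries (log2 fold change 2.91, SE 0.36, FDR 0.000926). *GPX7*, a glutathione peroxidase gene, had 13.2, 22.3 and 9.65 CPM in IQD22 palisade libraries, against 2.99, 1.93 and 1.43 CPM in JR11-2 reference libraries (log2 fold change 2.82, SE 0.35, FDR 0.00105). *ANL2*, a class IV homeodomain-leucine zipper gene, had 151, 134 and 168 CPM in IQD22 palisade libraries, against 52.1, 37.3 and 24.9 CPM in JR11-2 reference libraries (log2 fold change 2.00, SE 0.25, FDR 0.000926).

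Reporter genes that were not called included *MIOX2*, a myo-inositol oxygenase gene, with 21.2, 79.8 and 86.8 CPM in IQD22 palisade libraries and 37.4, 35.3 and 45.6 CPM in JR11-2 reference libraries. Its groups overlapped, with IQD22 palisade 1 the lowest of all, and the log2 fold change was 0.69 (SE 0.41, FDR 0.364), against 1.61 over IQD22 reference cells. *AT1G65845* overlapped throughout, with 8.02, 14.1 and 15.0 CPM in IQD22 palisade libraries and 9.30, 10.5 and 13.8 CPM in JR11-2 reference libraries. *GASA1*, a gibberellin-responsive peptide gene, had 208, 279 and 273 CPM in IQD22 palisade libraries and 83.7, 110 and 213 CPM in JR11-2 reference libraries, where JR11-2 reference 3 reached into the IQD22 palisade range (log2 fold change 0.92, SE 0.31, FDR 0.0901). *SQE6*, a squalene monooxygenase gene, was higher at a fold-difference of 2.07 and lost its call without IQD22 palisade 1 or JR11-2 reference 1 or 2.

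The study likewise picked genes from its own libraries as higher in non-palisade cells and tested them as reporters. The 15 listed here, which leave out *BHLH68*, were all lower in IQD22 palisade cells, against 4.02% of all genes. Because the study chose these genes from its own comparison of sorted cells, that direction is not independent evidence. Their median log2 fold change was -4.95. They summed to 41.7 to 96.4 CPM in IQD22 palisade libraries, against 769 to 1120 CPM in JR11-2 reference libraries. *CORI3*, a coronatine-induced C-S lyase gene, had 9.49, 16.2 and 9.88 CPM in IQD22 palisade libraries, against 244, 190 and 211 CPM in JR11-2 reference libraries (log2 fold change -4.16, SE 0.25, FDR 1.16e-05). *THA2*, a threonine aldolase gene, had 0.303, 0.652 and 0.965 CPM in IQD22 palisade libraries, against 29.8, 25.6 and 27.3 CPM in JR11-2 reference libraries (log2 fold change -5.38, SE 0.29, FDR 6.12e-06). *AK3*, an aspartate kinase gene on the route to methionine and threonine, had 0.564, 2.14 and 1.74 CPM in IQD22 palisade libraries, against 62.4, 35.6 and 60.1 CPM in JR11-2 reference libraries (log2 fold change -5.13, SE 0.40, FDR 5.34e-05). *EDA38*, a selenium-binding protein gene, had 20.7, 51.2 and 43.7 CPM in IQD22 palisade libraries, against 221, 179 and 224 CPM in JR11-2 reference libraries (log2 fold change -2.41, SE 0.30).

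In both lists of genes that answer wounding, calls were in the lower direction only. Of 26 jasmonate genes, none was higher and 3 were lower, *CORI3* among them, against 4.02% of all genes, with a list median of -0.23. As stated above, the direction of *CORI3* is not independent evidence. *AOS*, the allene oxide synthase gene, had 7040, 3800 and 3760 CPM in IQD22 palisade libraries and 5500, 5240 and 4770 CPM in JR11-2 reference libraries (log2 fold change -0.07, SE 0.28, FDR 0.921). The cyclase gene *AOC4* was the exception in the synthesis of jasmonate, with 0.520, 0.931 and 1.00 CPM in IQD22 palisade libraries, against 3.29, 2.78 and 2.98 CPM in JR11-2 reference libraries (log2 fold change -1.85, SE 0.29, FDR 0.00378). Its near-identical relatives *AOC1*, *AOC2* and *AOC3*, which were far more abundant and are uncertain as single genes, overlapped between the groups. *CYP94C1*, which oxidises active jasmonate, had -1.08 as its log2 fold change (SE 0.27, FDR 0.0291) and lost its call without IQD22 palisade 2 or 3 or JR11-2 reference 2 or 3.

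Among 16 wound and stress transcription factors, *ERF105*, *ERF1* and *DDF1* were lower, against 4.02% of all genes, and none was higher, with a list median of -0.21. *ERF105*, an ethylene response factor gene, had 6.63, 11.9 and 13.7 CPM in IQD22 palisade libraries, against 33.5, 32.2 and 29.2 CPM in JR11-2 reference libraries (log2 fold change -1.54, SE 0.24, FDR 0.00334). *ERF1* and *DDF1* lost their calls without IQD22 palisade 1, and *DDF1* also without IQD22 palisade 3 or JR11-2 reference 1 or 2. None of 15 heat shock genes was called, with a median of -0.03 and a summed level of 5830 to 13000 CPM in IQD22 palisade libraries and 7710 to 10100 CPM in JR11-2 reference libraries. *HSP101*, the disaggregase gene, had 2900, 1230 and 1600 CPM in IQD22 palisade libraries and 1660, 2250 and 1720 CPM in JR11-2 reference libraries.

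None of 12 clock genes was called, with log2 fold changes from -0.47 to 0.45. *CCA1*, a morning-expressed repressor, had 116, 154 and 96.5 CPM in IQD22 palisade libraries and 115, 104 and 55.5 CPM in JR11-2 reference libraries. Of the auxin genes, 9 of 12 could be tested and *GH3.3*, which joins auxin to amino acids, was lower, with 11.7, 18.3 and 11.4 CPM in IQD22 palisade libraries, against 30.5, 28.6 and 32.7 CPM in JR11-2 reference libraries (log2 fold change -1.13, SE 0.20, FDR 0.00603). *TAA1*, an aminotransferase gene of auxin synthesis, differed between the reference populations. It had 1.3, 1.4 and 2.66 CPM in IQD22 palisade libraries and 2.29, 2.82 and 1.91 CPM in JR11-2 reference libraries, with overlap, and 0.279, 0.224 and 0.349 CPM in IQD22 reference libraries. The log2 fold change of IQD22 reference over JR11-2 reference was -3.03 for *TAA1* and passed the test.

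The genes with the largest differences were taken from 690 called genes, 328 higher and 362 lower, whose groups did not overlap and whose higher group averaged at least 5 CPM. Among the 10 with the largest increase, *AT2G36885*, annotated as a translation initiation factor, had 15.5, 12 and 8.92 CPM in IQD22 palisade libraries, against 0.997, 0.445 and 0.716 CPM in JR11-2 reference libraries (log2 fold change 4.08, SE 0.32, FDR 5.45e-05). *AT3G24460*, annotated as a Serinc-domain protein, had 34.6, 41.7 and 17.3 CPM in IQD22 palisade libraries, against 3.29, 1.60 and 0.835 CPM in JR11-2 reference libraries (log2 fold change 3.99, SE 0.45, FDR 0.000572). Both were also higher against IQD22 reference cells, with log2 fold changes of 2.14 for *AT2G36885* and 3.06 for *AT3G24460*, and *AT2G36885* differed between the reference populations as well, with 1.92 for IQD22 reference over JR11-2 reference.

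*BGLU18*, a β-glucosidase gene of endoplasmic reticulum bodies, had 659, 180 and 391 CPM in IQD22 palisade libraries, against 84.8, 19.2 and 34.6 CPM in JR11-2 reference libraries (log2 fold change 3.16, SE 0.58, FDR 0.00729). Its levels varied more than 3-fold within each population, and library 2 was the lowest of both. The transcribed pseudogene *AT2G16367* had 4.55, 5.35 and 6.25 CPM in IQD22 palisade libraries, against 0.923, 0.260 and 0 CPM in JR11-2 reference libraries. *AT5G10150*, annotated as an UPSTREAM OF FLC protein, had 23.8, 24.9 and 22.6 CPM in IQD22 palisade libraries, against 3.80, 3.08 and 2.45 CPM in JR11-2 reference libraries (log2 fold change 2.94, SE 0.18, FDR 1.38e-05), and 8.21, 8.88 and 11.9 CPM in IQD22 reference libraries.

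Among the 10 with the largest decrease were a pair of genes that set the angle of shoots and branches. *LAZY1* (*AT5G14090*), which acts in shoot gravitropism, had 0.0434, 0.140 and 0.116 CPM in IQD22 palisade libraries, 7 counts in all, against 12, 12.5 and 8.05 CPM in JR11-2 reference libraries, 798 counts in all (log2 fold change -6.69, SE 0.36, FDR 6.12e-06). *TAC1* (*AT2G46640*), a member of the same family that opens branch angles, had 0.0434, 0.186 and 0.116 CPM in IQD22 palisade libraries, 8 counts in all, against 12, 11.1 and 11.3 CPM in JR11-2 reference libraries, 814 counts in all (log2 fold change -6.57, SE 0.31, FDR 5.84e-06). Both were as low against IQD22 reference cells, with log2 fold changes of -6.78 for *LAZY1* and -6.59 for *TAC1*. IQD22 reference over JR11-2 reference gave 0.07 for *LAZY1* and -0.01 for *TAC1*, and JR11-2 palisade libraries had 1.79 to 4.86 CPM of *LAZY1* and 1.98 to 3.84 CPM of *TAC1*.

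Defence genes were also among them. *HCHIB*, a basic chitinase gene, had 1 count in IQD22 palisade libraries and 411 in JR11-2 reference libraries, a JR11-2 to IQD22 ratio of 409 with a counting interval of 73.0 to 16200. *PDF1.2*, an antifungal defensin gene, had 0, 0.233 and 0.0386 CPM in IQD22 palisade libraries, against 13.3, 32.5 and 16.8 CPM in JR11-2 reference libraries, 6 counts against 1520. *PDF1.2c* had 3 counts in IQD22 palisade libraries and 691 in JR11-2 reference libraries, a ratio of 229 (counting interval 78.1 to 1110), and *PDF1.3* had 4 and 426 counts. These defensin genes are near-identical and uncertain as single genes. JR11-2 palisade libraries had 12.1, 36.4 and 18.3 CPM of *PDF1.2*, about the level of JR11-2 reference libraries, and IQD22 reference libraries had 2.15, 3.5 and 5.16 CPM, so that *PDF1.2* differed both between populations of the IQD22 line and between the lines. *HCHIB* had 0.702, 1.38 and 1.52 CPM in JR11-2 palisade libraries and 0.159, 0 and 0.116 CPM in IQD22 reference libraries. *HCHIB*, *PDF1.2* and *PDF1.2c* are among the genes, described next, that separate the lines in all 12 libraries.

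Genes that separate the lines in both sorted populations were sought over all 12 libraries. Their 6 libraries of a line all lay above the 6 of the other, with a mean at least 8 times higher and at least 1 CPM. The rule sets no limit on differences between cell types within a line. There were 20 such genes, 11 higher in the IQD22 line and 9 higher in JR11-2, and 14 of them lie on chromosome 5. *AT5G13210*, a gene of unknown function, had 257, 125 and 138 CPM in IQD22 palisade libraries, 216, 152 and 131 CPM in IQD22 reference libraries, 3.51, 6.67 and 3.63 CPM in JR11-2 palisade libraries and 4.1, 9.39 and 4.18 CPM in JR11-2 reference libraries. Its log2 fold change was 4.88 (SE 0.41) in the main comparison and 0.03 against IQD22 reference cells. *AT5G11250*, annotated as a disease resistance protein of the TIR-NBS-LRR class, had 20.2, 25.3 and 26.0 CPM in IQD22 palisade libraries, against 1.33, 0.965 and 0.656 CPM in JR11-2 reference libraries, and 0.03 as the log2 fold change against IQD22 reference cells.

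In the other direction, *AT4G32208*, annotated as a heat shock protein family member, had 1 count in IQD22 palisade libraries and 563 in JR11-2 reference libraries, a JR11-2 to IQD22 ratio of 560 with a counting interval of 100 to 22200. It was at 0 in all IQD22 reference libraries and had 5.73 to 6.61 CPM in JR11-2 palisade libraries. *AT5G15360* had 2 counts in IQD22 palisade libraries and 477 in JR11-2 reference libraries, a ratio of 237 (counting interval 65.3 to 1970), and *AT5G16350*, annotated as an acyltransferase, 9 and 705 counts. The rule that picked these genes requires JR11-2 palisade libraries to lie on the side of JR11-2 reference libraries, so that this is not a separate result.

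A run of chromosome 5 from AT5G08000 to *AT5G16980*, bounded by line-private genes with no gap of over 200 tested genes, held 12 of the 20, with 9 higher in the IQD22 line and 3 higher in JR11-2. In the main comparison, 35 of its 705 tested genes were higher and 49 lower, together 11.9%, against 6.02% of genes outside it, and it held 6.8% of all calls. Against IQD22 reference cells, 6.79% of its genes were called and 8.82% of those outside it. For IQD22 reference over JR11-2 reference, 2.83% of its genes were called and 0.212% of those outside it, and it held 32.8% of the calls. The run was bounded by the values, so these shares are a description with no test, and without it the main comparison had 403 higher and 743 lower genes.

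**Figure D5:**
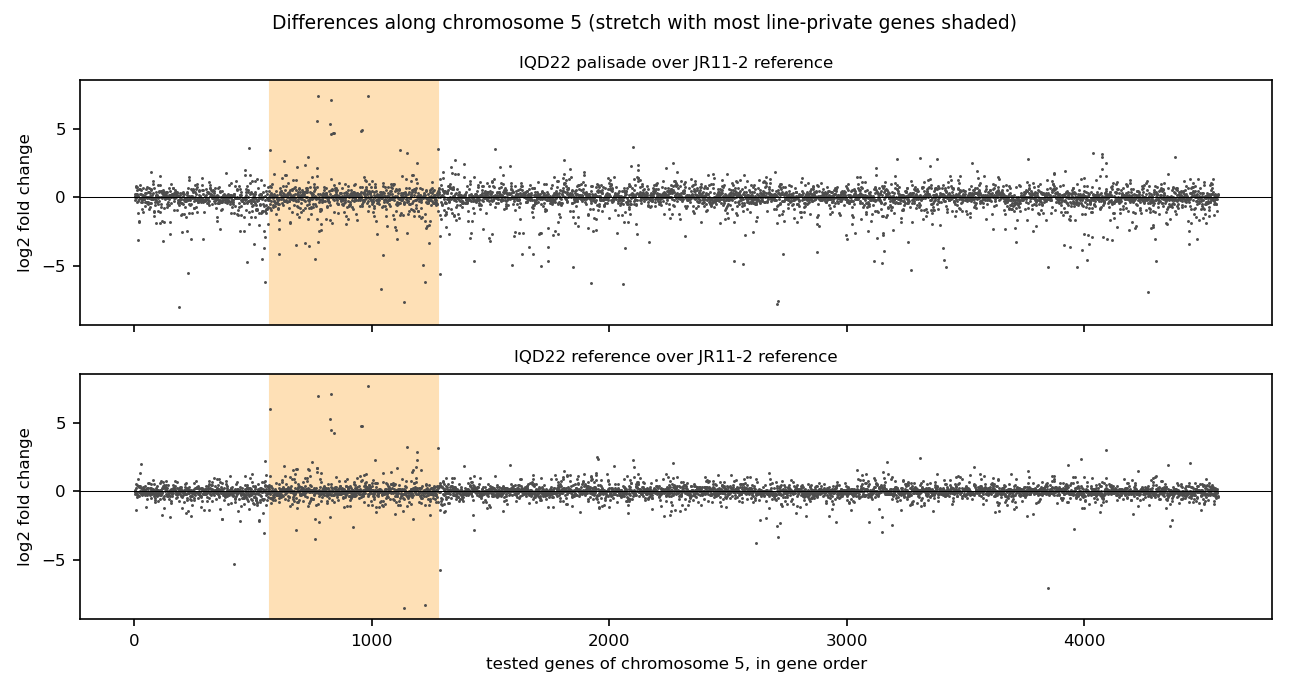
Log2 fold changes of tested genes in their order along chromosome 5, for IQD22 palisade over JR11-2 reference (upper panel) and IQD22 reference over JR11-2 reference (lower panel), with the run that holds 12 line-private genes shaded. In the shaded run 11.9% of genes were called in the upper panel and 2.83% in the lower panel, against 6.02% and 0.212% of all genes outside the run.

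*KAN1*, *IMD1*, *CHS*, *FLS1*, *JAZ10* and a pair of small heat shock genes of the lists lie in this run, as do *LAZY1*, *AT5G16980*, *AT5G15500* and *AT5G10150* of the genes with the largest differences. *KAN1*, *LAZY1* and *IMD1* were also lower against IQD22 reference cells of the same line, with log2 fold changes of -3.89, -6.78 and -5.55. *AT5G16980*, annotated as a zinc-binding dehydrogenase, and *AT5G15500*, an ankyrin repeat protein gene, were called in the main comparison with log2 fold changes of 3.49 (SE 0.25) and 3.23 (SE 0.27), and had 0.32 and -0.03 against IQD22 reference cells.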

How the data were processed

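Stranded mRNA-seq libraries of sorted leaf protoplasts were examined. Per the labels and the study's methods, the authors made base calls with CASAVA 1.8.2, aligned reads to the TAIR10 genome with TopHat2 2.0.9 and counted reads per gene with HTSeq 0.6.1, so that the deposited values are raw counts of uniquely mapped reads. Reads shared by near-identical genes are therefore missing from those genes. Reads without a feature were 1.486% to 2.705% and reads not mapped uniquely 4.333% to 7.46% of the 12 libraries used, and such rows stayed out of library sizes. Of 33602 genes, 133 chloroplast and 146 mitochondrial genes were left out and 33323 nuclear genes kept. Names came from the files' identifiers through the RefSeq annotation of TAIR10.1, which had an entry for 32835 of them. Sequences and coordinates were not used here, and gene order follows the numbering of the identifiers.

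Genes that reached 2 counts in 3 or more of the 6 libraries were fitted with edgeR 4.0.16 in R 4.3.3 (TMM scaling, quasi-likelihood F test), after the study's own design, with Benjamini-Hochberg adjustment over all genes tested, and were called at an FDR below 0.05 and a fold-difference above 2. The standard error is the absolute log2 fold change divided by the square root of F and is approximate. CPM values use TMM factors over the 12 libraries. IQD22 palisade and JR11-2 reference shared no pool and were fitted unpaired, as were the reference populations of both lines. IQD22 palisade and IQD22 reference cells were fitted with the pool as a block. The labels give only replicate numbers, and the study's methods state that cells of the same protoplast pool were paired where possible. Deviations of the libraries paired by number correlated (r 0.70, 0.58 and 0.64). Per the study's methods each replicate was protoplasts of many leaves. Whether replicates came from separate sowings or days is not given in the sources used here, so that p-values measure the spread between these samples.

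The named genes are IQD22, the members of the lists, the 10 called genes per direction with the largest log2 fold change among those with no overlap between groups and a mean of at least 5 CPM in the higher group, and 5 line-private genes per direction, of which those with most bearing are described. The members, lists and tests were chosen with earlier results of these data known. Counting intervals are exact binomial 95% intervals of counting error only. The alternatives tried were upper-quartile scaling, DESeq2 1.42.0, the likelihood ratio test of edgeR, no filter or at least 10 counts in every library, organelle genes kept, TREAT, a fit of 12 libraries, the replicate block, and leaving out each library. The scripts were tested on simulated data.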

Additional observations from a re-analysis of the deposited data

How the results depend on the processing

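For IQD22 palisade against JR11-2 reference, DESeq2, the likelihood ratio test, upper-quartile scaling, no filter, organelle genes kept and the fit of 12 libraries stayed within 1.5 times of 438 higher and 798 lower genes, at 379 to 527 higher and 795 to 1037 lower. A minimum of 10 counts in every library gave 332 higher and 442 lower, and TREAT, which tests for a fold-difference above 2, gave 75 higher and 317 lower, of which lower genes were 80.9%. Leaving out single libraries gave 215 to 625 higher and 513 to 731 lower. For IQD22 palisade against IQD22 reference, a minimum of 10 counts gave 246 higher and 665 lower, TREAT 144 and 683, and leaving out single pools 373 to 383 higher and 1065 to 1147 lower. For IQD22 reference against JR11-2 reference, DESeq2 gave 132 higher and 60 lower, the likelihood ratio test 181 and 94, no filter 79 and 33, a minimum of 10 counts 21 and 7, and TREAT 9 and 7. Leaving out single libraries gave 7 to 65 higher and 4 to 25 lower there. Without the run on chromosome 5, an alternative chosen after seeing the data, it had 18 higher and 13 lower.

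Libraries of different lines share only a replicate number. Same-numbered libraries of IQD22 palisade and JR11-2 reference deviated with r of -0.27, -0.18 and -0.16, and none of the 6 correlated best with its own number. With the number as a replicate block there were 400 higher and 602 lower genes. IQD22 reference against JR11-2 reference had 16 higher and 12 lower genes with the block. IQD22 palisade against IQD22 reference, whose pairing by pool was inferred from the replicate numbers and the study's methods, had 291 higher and 1049 lower genes without the block.

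Of 104 single-gene results of the main comparison, none changed direction under any alternative in which it was tested. A minimum of 10 counts in every library removed many of them from the test, with 70 the same and 1 weaker. At that limit 3 of 4 tested abaxial genes and 11 of 15 tested aliphatic glucosinolate genes were lower. DESeq2, the likelihood ratio test, no filter and organelle genes kept changed no call among the 104. TREAT ended 32 calls, the block 3 (*FLS1*, *CYP94C1* and *TGG2*) and the omission of single libraries 4 to 13, with 13 for JR11-2 reference 2. The depth of 15431767 counts in JR11-2 reference 3 sets the highest floor, and genes below it in both populations could not be compared.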

Other observations

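Other genes that separated the lines in all 12 libraries were less abundant. *SAG29*, a sugar transporter gene of the SWEET family, averaged 1.34 CPM over the 6 libraries of the IQD22 line, against 0.127 CPM over those of JR11-2, and *MRD1* averaged 1.63 CPM in the IQD22 line, against 0.118 CPM in JR11-2. *GEX3*, a gamete-expressed gene, averaged 5.89 CPM in the IQD22 line, against 0.701 CPM in JR11-2. *PDF1.2b*, a further defensin gene, averaged 0.226 CPM in the IQD22 line, against 1.89 CPM in JR11-2. *SAG29* and *GEX3* lie in the run on chromosome 5, and *MRD1* and *PDF1.2b* lie outside it.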
